A study of Mus musculus with 6 samples.

Results

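The T cell receptor genes were taken as every gene that GENCODE M21, on the mouse build GRCm38, types as a V, D, J or C gene of a T cell receptor, which gave 226 of 55450 annotated genes. They comprised 144 V, 4 D, 70 J and 8 C genes in 3 loci, with 172 genes in the alpha/delta locus (chr14:52427928-54224206), 39 in the beta locus (chr6:40891229-41558452) and 15 in the gamma locus (chr13:19178024-19352756). A further 44 segments annotated as pseudogenes were not members. H3K4me3, the trimethylation of histone H3 at lysine 4 that marks active promoters, had been profiled by ChIP-seq in a pair of mouse cell lines, with 2 ChIP libraries and 1 input library each. Scid.adh.2C2 is a T cell progenitor line that resembles the DN3 stage, subcloned from a spontaneous thymic lymphoma of a SCID mutant mouse, and carries the Prkdc scid background. The second line, called the Abelson line here, is an Abelson virus transformed B cell progenitor line. Both are transformed lines and each stands for its lineage alone, so lineage, transformation and clone cannot be told apart. Neither line carried a treatment according to the labels.

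T cell receptor chains are assembled in developing lymphocytes by V(D)J recombination, in which the RAG1/RAG2 recombinase joins a V, in some loci a D, and a J segment that then splice to a C exon. Each segment is flanked by a recombination signal, made of a conserved heptamer and nonamer that are separated by a short or a long spacer, and a short-spacer signal recombines with a long-spacer signal. RAG2 carries a PHD finger that binds H3K4me3, and unrearranged segments are transcribed from germline promoters in cells where a locus is accessible. The beta locus is rearranged at the DN3 stage, before the alpha locus. Delta segments lie within the alpha locus, with the delta D, J and C genes between the V alpha and J alpha segments. Some V segments used in delta chains lie among the V alpha genes.

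The authors deposited 1 peak list per line in which both replicates were combined, so there is no spread between replicates, no read depth and no test in what follows. All differences between loci, segment types and lines are counts and values of these lists. A gene is called marked when a peak overlapped the region within 2500 bp of one of its transcription start sites (TSSs) by at least 1 bp. Fold enrichment is the peak caller's signal at the summit over local background, and it was compared only within a list. The Scid.adh.2C2 list held 15513 peaks with a median fold enrichment of 20.3, and the list of the Abelson line held 19604 with a median of 15.4. The lineage of each line was checked on the same windows around the TSSs of marker genes. All 9 T lineage markers were marked in Scid.adh.2C2 and 3 of 9 in the Abelson line (Cd3d, Lck and Tcf7), whereas 1 of 8 B lineage markers was marked in Scid.adh.2C2 (Vpreb1) and 8 of 8 in the Abelson line.

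Segments of the beta locus are shown first, because the 2 D-J-C clusters of this locus differed in the peaks they carried. The other Trbj1 and Trbj2 segments are not shown, and whether the signals differ between the clusters was not tested. Sequences are from the RefSeq copy of GRCm38, the C57BL/6J reference and not these lines, and run 5′ to 3′ on the coding strand. Capitals mark the 7 bases and the 9 bases at the positions of heptamer and nonamer, set by spacers of 12 or 23 bases, and the segment itself is in lower case between or after them.
Trbd1, chr6:41533173-41533251, plus strand: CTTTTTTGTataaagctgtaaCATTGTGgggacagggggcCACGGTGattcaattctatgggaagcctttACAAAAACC
Trbd2, chr6:41542135-41542215, plus strand: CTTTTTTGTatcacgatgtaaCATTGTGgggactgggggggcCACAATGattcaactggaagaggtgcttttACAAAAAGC
Trbj1-1, chr6:41533836-41533911, plus strand: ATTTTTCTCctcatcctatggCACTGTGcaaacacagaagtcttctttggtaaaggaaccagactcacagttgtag
Trbj2-1, chr6:41542726-41542803, plus strand: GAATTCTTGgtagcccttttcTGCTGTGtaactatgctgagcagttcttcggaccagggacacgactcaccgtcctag
Trbj2-4, chr6:41543334-41543410, plus strand: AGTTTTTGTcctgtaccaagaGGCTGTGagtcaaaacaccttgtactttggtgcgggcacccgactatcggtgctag

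The gamma J segments are shown in the same way because 3 of them, which are near-copies of each other, carried peaks in the Abelson line and the fourth did not. Over 88 bases of segment and signal, Trgj1 and Trgj2 differed at 4 positions (95.5% identity), and Trgj3 differed from each of them at 6 (93.2%).
Trgj1, chr13:19210315-19210402, plus strand: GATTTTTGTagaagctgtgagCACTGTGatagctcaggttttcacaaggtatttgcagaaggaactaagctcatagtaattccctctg
Trgj2, chr13:19311245-19311332, minus strand: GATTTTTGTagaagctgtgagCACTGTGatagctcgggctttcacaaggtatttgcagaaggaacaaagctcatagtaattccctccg
Trgj3, chr13:19257089-19257176, plus strand: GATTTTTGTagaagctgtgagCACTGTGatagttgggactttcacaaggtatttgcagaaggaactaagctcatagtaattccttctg
Trgj4, chr13:19342124-19342212, plus strand: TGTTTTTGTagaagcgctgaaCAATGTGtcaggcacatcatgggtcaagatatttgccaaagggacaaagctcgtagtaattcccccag

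The signals that follow the V segments under the strongest peak of the T cell receptor loci in each line are given as the 39 bases after the segment, with the same capitals. The Scid.adh.2C2 summit lay inside the bases shown for Trbv12-2.
Trbv12-2, chr6:41119365-41119403, plus strand: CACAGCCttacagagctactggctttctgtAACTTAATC
Tcrg-V4, chr13:19185507-19185545, plus strand: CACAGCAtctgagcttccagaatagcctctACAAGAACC

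The 151 bases around 3 summits show the kind of sequence that carried the peaks, with each CG dinucleotide in capitals. The window at the Trbj2 cluster held 3 CG dinucleotides, the window at Tcrg-V4 held 2 and the window at Tcrg-C2 held 0.
Summit in Scid.adh.2C2 over the Trbj2 segments, chr6:41543329-41543479, plus strand: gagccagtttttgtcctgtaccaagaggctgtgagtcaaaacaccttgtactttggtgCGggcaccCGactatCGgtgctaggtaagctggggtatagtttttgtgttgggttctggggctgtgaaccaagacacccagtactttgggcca
Summit in the Abelson line at Tcrg-V4, chr13:19184631-19184781, plus strand: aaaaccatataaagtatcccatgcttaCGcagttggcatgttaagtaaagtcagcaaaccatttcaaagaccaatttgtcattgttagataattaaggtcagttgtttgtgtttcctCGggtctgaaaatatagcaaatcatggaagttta
Summit in the Abelson line in Tcrg-C2, chr13:19306783-19306933, plus strand: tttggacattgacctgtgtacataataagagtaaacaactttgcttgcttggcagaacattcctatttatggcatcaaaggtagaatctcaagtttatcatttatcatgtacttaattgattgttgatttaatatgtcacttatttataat

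To compare the members with other genes, the share of marked genes was determined in each list. In Scid.adh.2C2, 23 of 226 T cell receptor genes (10.2%) were marked, beside 23.6% of all annotated genes and 45.5% of protein-coding genes. In the Abelson line, 13 of 226 (5.75%) were marked, beside 25.5% of all annotated genes and 48.2% of protein-coding genes. Both shares of the members were thus below the shares of all genes. There were 21 members (9.29%) marked in Scid.adh.2C2 only, where 2.18% of all genes fell in that class. In the Abelson line only, 11 members (4.87%) were marked, a share near the 4.09% of all genes. The V genes Trbv23 and Trbv26 were marked in both lines, whereas 21.4% of all genes were. The remaining 192 members were marked in neither line. The marks do not count independent events, since 14 distinct peaks gave rise to them in each line.

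The loci divided between the lines. The beta locus held most of the marked members in Scid.adh.2C2, with 16 of 39 genes (41%), and 2 of 39 (5.13%) in the Abelson line. The gamma locus was the reverse, with 0 of 15 in Scid.adh.2C2 and 8 of 15 (53.3%) in the Abelson line. The alpha/delta locus, by far the largest, had 7 of 172 (4.07%) in Scid.adh.2C2 and 3 of 172 (1.74%) in the Abelson line. By segment type, the marked members of Scid.adh.2C2 were 14 of 144 V, 1 of 4 D, 7 of 70 J and 1 of 8 C genes, and those of the Abelson line were 7 V, 0 D, 3 J and 3 C genes. The bars by locus and segment type show that the J and C genes were marked in different loci in the 2 lines.

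**Figure D1:**
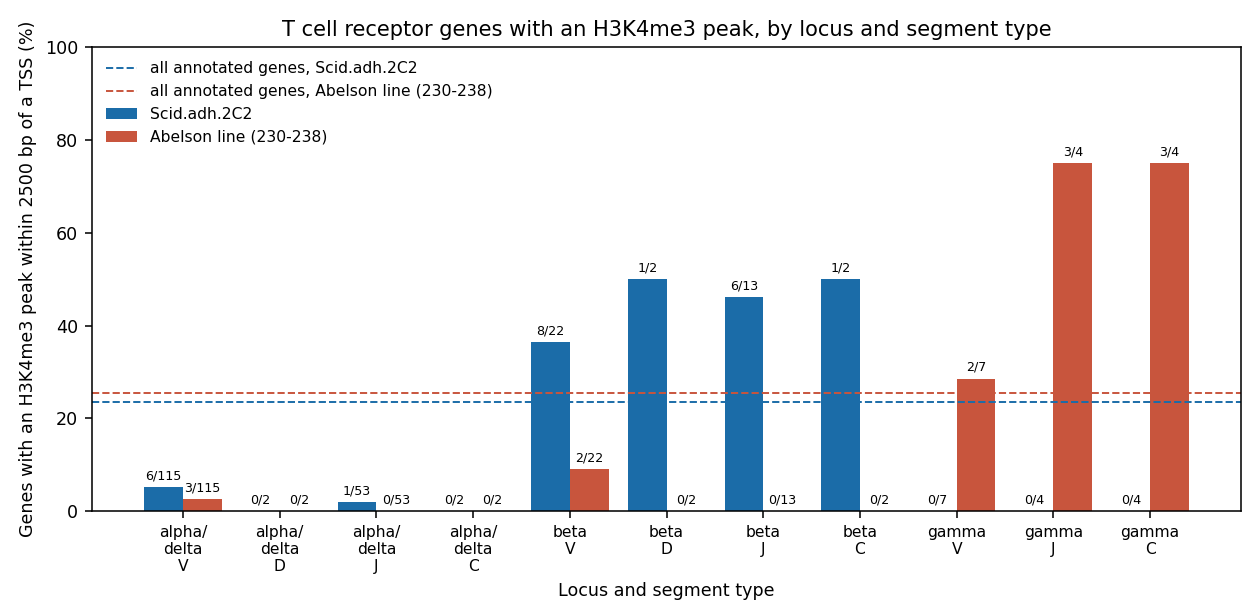
Percentage of T cell receptor genes with an H3K4me3 peak within 2500 bp of a TSS, for each locus and segment type, in Scid.adh.2C2 (blue) and the Abelson line (red), with marked and total genes above each bar. Dashed lines give the share over all annotated genes, 23.6% and 25.5%. Beta V, D, J and C genes stood above their line in Scid.adh.2C2, and gamma J and C genes in the Abelson line, where the gamma V genes (2 of 7, through 1 peak) were near it.

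Within the beta locus, the D, J and C segments lie in a pair of clusters, each with 1 D gene, a run of J genes and 1 C gene, and only the downstream cluster was marked. All 8 genes of the Trbd2-Trbj2-Trbc2 cluster were marked in Scid.adh.2C2 and 0 of 8 in the Abelson line. A single peak of 20.5-fold enrichment (chr6:41542867-41546505, 3639 bp, −log10 q of 85.6) accounted for all 8 marks. It started 691 bp after the end of Trbd2 and 64 bp after Trbj2-1, covered Trbj2-2, Trbj2-3, Trbj2-4, Trbj2-5 and Trbj2-7 with their recombination signals at the recombining end, and stopped 225 bp before Trbc2, which encodes a constant region of the beta chain. Its summit fell 6 bp inside the end of Trbj2-4. Trbd2, Trbj2-1 and Trbc2 were therefore marked through the window around their TSSs and did not themselves lie under the peak.

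The upstream cluster of Trbd1, Trbj1-1 to Trbj1-7 and Trbc1 had 0 of 9 genes marked in both lines. In Scid.adh.2C2 the nearest peak to Trbd1 was that over the Trbj2 segments, 9666 bp away, and Trbc1, the other beta constant gene, was 4649 bp from it. In the Abelson line the corresponding distances were 21362 bp and 16345 bp. In the reference genome, at least 92.9% of the 67-base words (the length of a trimmed read) in each of these 9 windows occur once. Whether rearrangement had removed these segments in either line was not tested. Trbc1 and Trbc2 windows shared 5.39% of their words.

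Of the 22 beta V genes, 8 were marked in Scid.adh.2C2 and 2 in the Abelson line. The highest fold enrichment among all members in Scid.adh.2C2, 21.8, belonged to a 3258 bp peak (chr6:41118100-41121357) that covered Trbv12-2, with its summit 30 bp past the 3′ end of the segment, in the bases printed above. This peak ended 39 bp before Trbv13-2 and also lay in the window of Trbv13-1. Trbv12-1, the neighbouring copy of Trbv12-2, carried a separate peak of 12.4-fold. Upstream of these, Trbv5 lay under a peak of 11.5-fold with a further peak of 9.26-fold 685 bp past the segment, and Trbv4 was marked by the first of these peaks. The windows of Trbv12-1, Trbv12-2, Trbv13-1 and Trbv13-2 shared 0% of their words with the window of their nearest namesake, so that their peaks were told apart by sequence.

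Trbv23 and Trbv26 were the only members marked in both lines. At Trbv23 the peaks measured 6.22-fold in Scid.adh.2C2 and 8.11-fold in the Abelson line, and they overlapped by 509 bp. At Trbv26 they measured 6.01-fold and 7.88-fold and overlapped by 291 bp. All 4 values were below the median of their own list. The marked beta V genes of Scid.adh.2C2 ran from Trbv4 to Trbv26, with Trbv13-3 to Trbv21 between them unmarked. Trbv1, Trbv2, Trbv3, Trbv29, Trbv30 and Trbv31 were unmarked in both lines.

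Further beta peaks lay outside the windows of members. In Scid.adh.2C2 these were a pair of weak peaks of 4.47-fold and 5.55-fold between Trbc2 and Trbv31, both below the highest IDR score (545 and 640 of 1000). In the Abelson line a peak of 9.85-fold (chr6:41554563-41555128) lay between those 2 positions without overlapping either. Other Abelson line peaks were found at the pseudogene segment Trbv25 (10.3-fold) and the processed pseudogene Gm2719 (8.31-fold). None of the 14 protein-coding genes inside the locus, among them the trypsin family genes Prss1, Prss2, Try4 and Try5, was marked in either line. Beyond the D-J-C end, Ephb6, an Eph receptor gene, was marked in both lines (34.9-fold and 16.4-fold) and Trpv6 in neither. At the other end, upstream of Trbv1, Moxd2 and Mgam were marked in neither. The longest stretch of the locus without a peak in Scid.adh.2C2 was 314727 bp with 13 members, between Trbv26 and the Trbj2 peak, and in the Abelson line it was 324892 bp with 17 members, from Trbv1 to Trbv23.

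**Figure D2:**
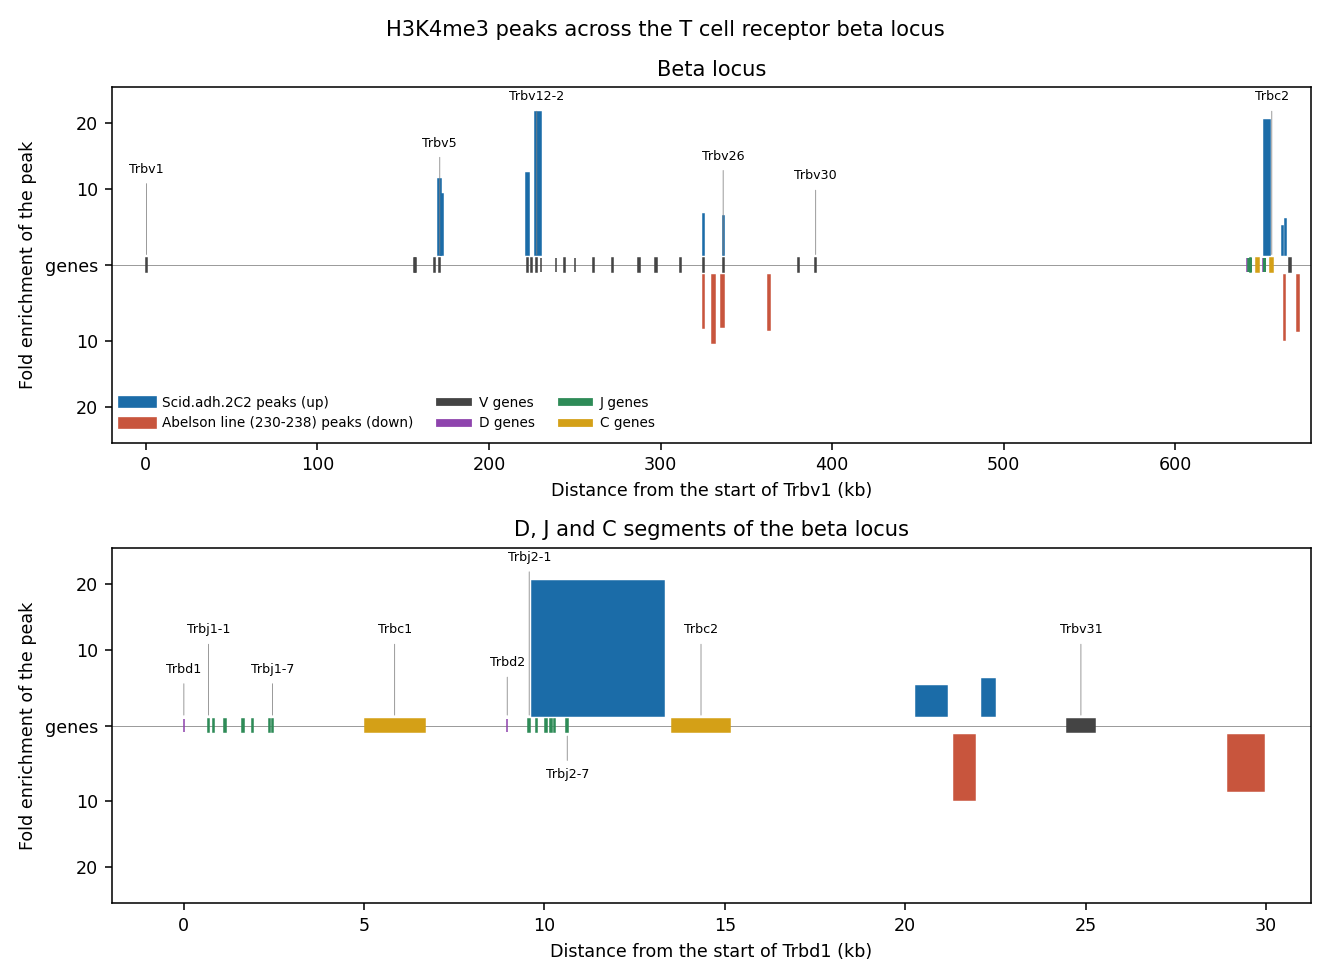
Peaks across the whole beta locus (top, distance from Trbv1 in kb) and its D, J and C segments (bottom, distance from Trbd1 in kb), with bar height giving fold enrichment, Scid.adh.2C2 upwards and the Abelson line downwards, and genes on the middle line coloured by segment type. In the lower panel, the 20.5-fold Scid.adh.2C2 peak lies over the Trbj2 segments, and no peak of either line lies over Trbd1, the Trbj1 segments or Trbc1.

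The gamma locus encodes the gamma chain of gamma/delta T cells and is organised as V-J-C cassettes, each with its own constant gene. In the Abelson line, of the B lineage, it held 13 peaks with a median of 9.31-fold and a range of 7.11 to 18.9, which covered 14.8% of the locus at 72.3 peaks per Mb. The corresponding density was 7.44 peaks per Mb in the beta locus and 3.33 in the alpha/delta locus of the same line. These densities count each called peak, and several gamma peaks lay within 1000 bp of each other. Merging peaks within 1000 bp left 16 of 24 over the 3 loci in the Abelson line and 15 of 19 in Scid.adh.2C2. Every Abelson line peak joined in this way was a gamma peak. The gamma density therefore falls with merging, whereas the densities of the beta and alpha/delta loci do not change. In Scid.adh.2C2, no peak was called in the gamma locus. A Scid.adh.2C2 peak of 9.02-fold lay 2979 bp past Tcrg-C4, the last gamma gene, and an Abelson line peak of 11.99-fold overlapped it. Both lay outside the 2500 bp flank and were not counted to the locus. They were within 2500 bp of an annotated TSS of Stard3nl, near the 3′ end of that minus-strand gene.

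The marked V genes were Tcrg-V4 and Tcrg-V6, through 1 peak of 18.9-fold (chr13:19182475-19188252, 5778 bp) that covered Tcrg-V4. Its summit was 268 bp upstream of the start of Tcrg-V4 and the peak ended 2104 bp from the nearest TSS of Tcrg-V6. Of the other V genes, Tcrg-V5 was 4026 bp and Tcrg-V7 4451 bp from the same peak, and Tcrg-V3, Trgv2 and Tcrg-V1 were at least 14091 bp from any peak of this line.

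The J and C genes of 3 of 4 cassettes were marked in the Abelson line. In the first, Trgj1 lay under a peak of 9.31-fold and Tcrg-C1 was marked by that peak, by one of 14.5-fold that ended 11 bp before the gene and by one of 7.11-fold inside it. In the second, Trgj3 lay under a peak of 8.99-fold, which also marked Tcrg-C3, with a further 8.47-fold peak inside Tcrg-C3. In the cassette on the opposite strand, Tcrg-C2 lay under a peak of 17.5-fold and Trgj2 under one of 13.4-fold. The fourth cassette, Trgj4 with Tcrg-C4, was unmarked, and Trgj4 was 13560 bp and Tcrg-C4 11154 bp from the nearest Abelson line peak. The longest peak-free stretch in this line, 40650 bp with 4 members, ran from the Trgj2 peak to the end of Tcrg-C4.

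Since the cassettes are near-copies, the share of sequence that can be assigned to one of them was determined. Between 78.2% and 100% of the 67-base words of each of the 13 peaks occur once in the genome. The windows of Trgj1, Trgj2 and Trgj3 shared 1.34% to 9.26% of their words with each other and those of Tcrg-C1, Tcrg-C2 and Tcrg-C3 shared 5.88% to 13%, so that part of the signal at these genes is uncertain in its origin. The fourth cassette shared 0% of its words with the others.

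**Figure D3:**
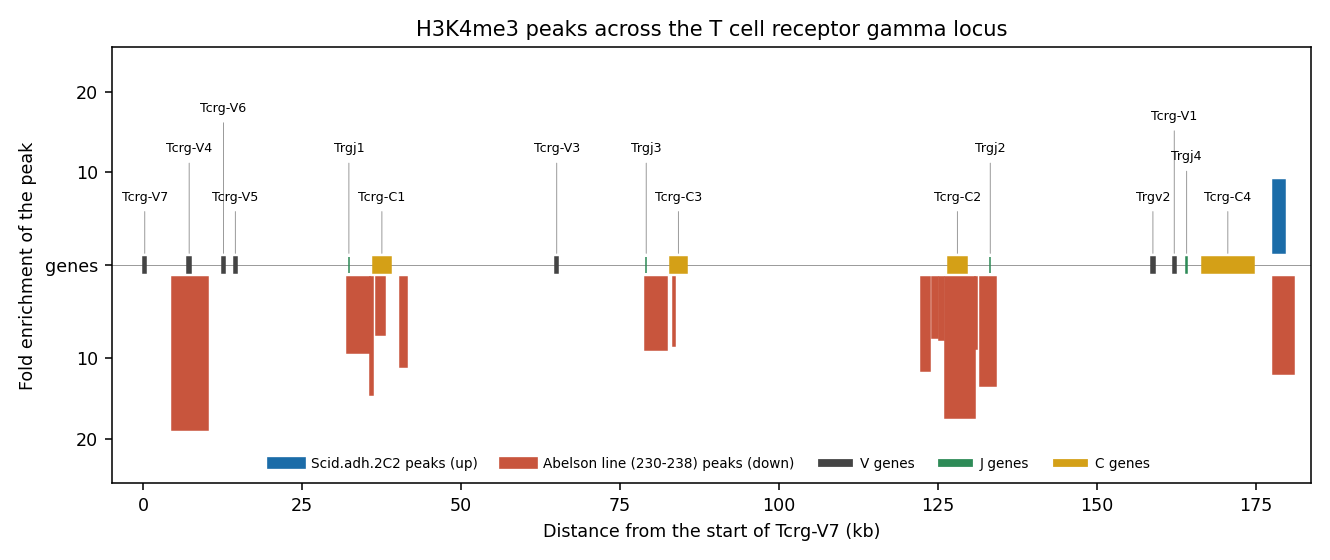
Peaks across the gamma locus in kb from the start of Tcrg-V7, with bar height giving fold enrichment, Scid.adh.2C2 upwards and the Abelson line downwards, and genes coloured by segment type. The 13 peaks of the Abelson line fall at Tcrg-V4, at the cassettes of Tcrg-C1 and Tcrg-C3 and around Tcrg-C2 and Trgj2. The peaks of both lines at the right edge lie past Tcrg-C4, near the 3′ end of the neighbouring gene Stard3nl, and were not counted to the locus.

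In the alpha/delta locus, few members were marked in either line and 0 of 172 in both, beside 21.4% of all genes marked in both. The 7 marked in Scid.adh.2C2 were 6 V genes and 1 J gene. The V alpha genes B230359F08Rik (18.8-fold), Trav17 (17.9-fold) and Trav13d-4 (11.5-fold) had the highest values. B230359F08Rik and Trav13d-4 lay under their peaks, whereas the peak of Trav17 ended 2099 bp from its TSS. Only 52.4% of the words in the Trav13d-4 peak and 57.3% of those in the Trav16d-dv11 peak occur once in the genome, so the copy that gave rise to them is uncertain. Between B230359F08Rik and Trav17 a pair of further peaks of 19.6-fold and 7.56-fold lay outside any window. Trav16d-dv11, whose name marks use in both alpha and delta chains, measured 7.21-fold, and the delta V genes Trdv2-1 and Trdv2-2 measured 7.06-fold and 6.96-fold. The peaks of Trav16d-dv11 and Trdv2-1 were below the highest IDR score (784 and 966 of 1000). Trdj2, a delta J gene, measured 6.59-fold through a peak 1838 bp from its TSS.

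The 3 alpha/delta genes marked in the Abelson line were Trav15-2-dv6-2 (13.7-fold), Trav15-1-dv6-1 (12.9-fold) and Trav2 (5.85-fold), and all 3 lay under their peaks. Only 48.1% of the words in the Trav15-2-dv6-2 peak and 75.2% of those in the Trav15-1-dv6-1 peak occur once in the genome, so these near-copies are uncertain. Other Abelson line peaks in the locus lay at the olfactory receptor gene Olfr1509 (7.53-fold), the pseudogene segment Trav22 (6.99-fold) and upstream of Trdv4 (9.27-fold). The other olfactory receptor genes inside or upstream of the locus, Olfr1507, Olfr1508, Olfr1510 and Olfr1511, were marked in neither line.

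The J alpha region had no peak in either line. All 51 Traj genes were unmarked, at 9157 to 43219 bp from the nearest Scid.adh.2C2 peak and 9780 to 71483 bp from the nearest Abelson line peak. At least 97.1% of the words in each Traj window occur once in the genome. Trac, the alpha constant gene, was 6472 bp and 7095 bp from the nearest peaks of the respective lines. The delta constant gene Trdc was 3135 bp from the Scid.adh.2C2 peak near Trdj2. The delta D genes Trdd1 and Trdd2 were unmarked. The nearest Scid.adh.2C2 peak to Trdd1 lay 9342 bp away (chr14:54102230-54104126, 9.79-fold), and the nearest to Trdd2 was the peak near Trdj2, 16391 bp away.

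Beyond the 3′ end of Trac, both lines had peaks that shared 649 bp, at 11.2-fold in Scid.adh.2C2 and 9.61-fold in the Abelson line. They lay 3500 bp and 3410 bp past the gene and were not counted to the locus. The next protein-coding genes, Dad1 and Abhd4, shared a mark in both lines (22.9-fold and 15.2-fold). The longest stretch without a peak held 63 members over 721085 bp in Scid.adh.2C2 and 84 members over 992054 bp in the Abelson line.

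Many V alpha genes are copies of each other, and this limits what a missing peak says. Of the 226 members, 57 had under 50% of their window words once in the genome, and all 57 were alpha/delta V genes. Of these, 3 were marked (Trav13d-4, Trav16d-dv11 and Trav15-2-dv6-2). The 34 V genes named with a d had a median of 4.49% of words once and the 28 named with an n had 4.71%, which are the copied blocks of the V alpha region. Among the 121 members with at least 90% of words once, 98 (81%) were marked in neither line, beside 54 of 57 (94.7%) below 50%. Counted over these 121 members alone, 19 were marked in Scid.adh.2C2 and 6 in the Abelson line, with 16 of 37 in the beta locus and 3 of 74 in the alpha/delta locus in Scid.adh.2C2. Among these members the gamma locus gave 3 of 10 in the Abelson line, against 8 of 15 over all its genes.

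**Figure D4:**
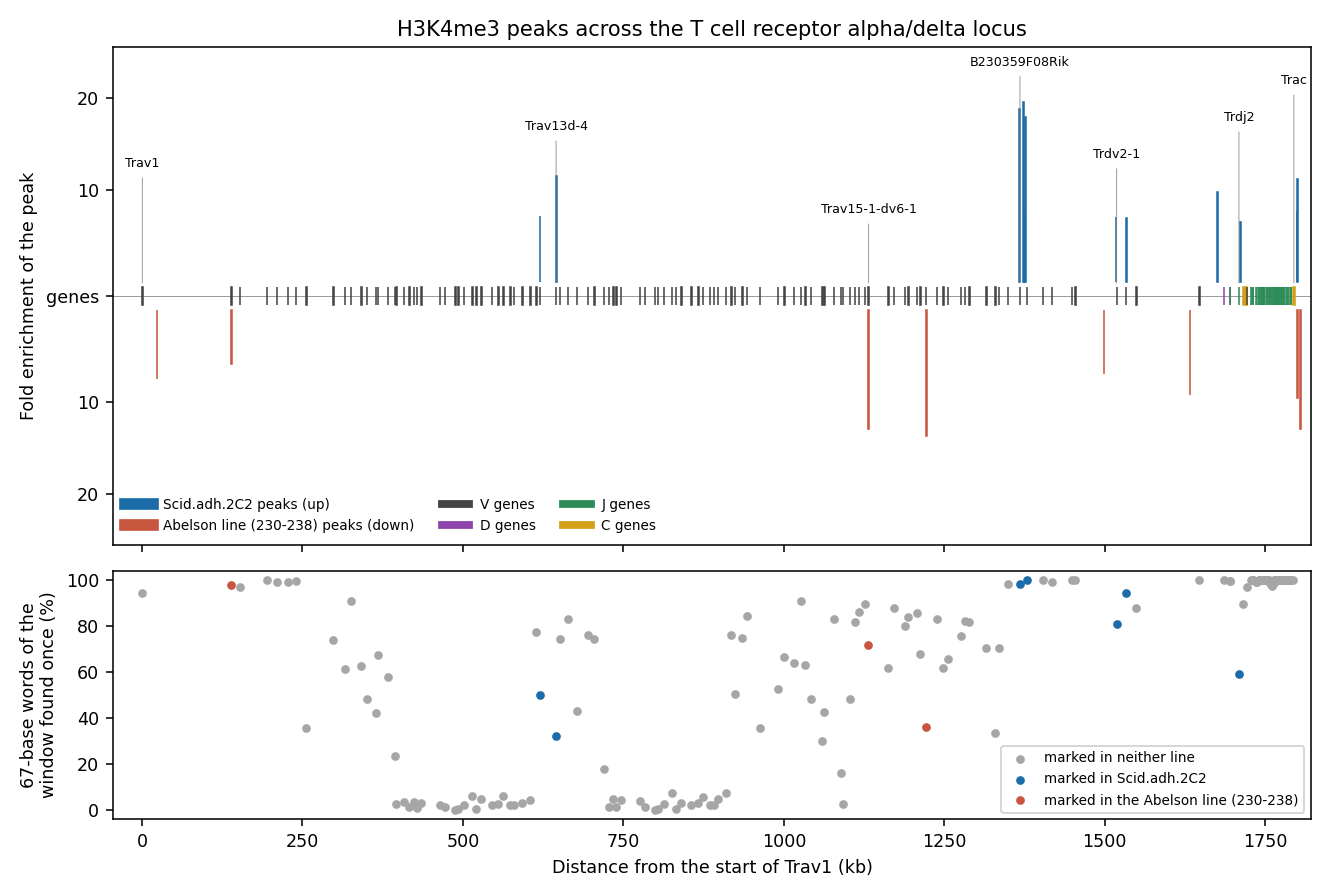
Top, peaks across the alpha/delta locus in kb from the start of Trav1, with fold enrichment as bar height, Scid.adh.2C2 upwards and the Abelson line downwards, and genes coloured by segment type. Bottom, the percentage of 67-base words in each gene's window that occur once in the genome, coloured by the line in which the gene was marked. The V genes with under 50% of words once include 3 marked genes, and no peak of either line lies over the J alpha genes at the right.

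To place the peaks of the 3 loci in their lists, all peaks within 2500 bp of the loci were compared with the list they came from. The 19 peaks in Scid.adh.2C2 had a median of 9.26-fold, where the lower quartile of the list was 10.6, and 2 of them were above the list median. The 24 peaks in the Abelson line had a median of 9.13-fold, where the lower quartile of the list was 9.72, and again 2 were above the list median. The 2 above the median were the Trbv12-2 and Trbj2 peaks in Scid.adh.2C2 and the Tcrg-V4 and Tcrg-C2 peaks in the Abelson line. Of the 19 Scid.adh.2C2 peaks, 4 were below the highest IDR score, and 0 of the 24 in the Abelson line were. The lines shared 2 of these peaks, at Trbv23 and Trbv26.

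**Figure D5:**
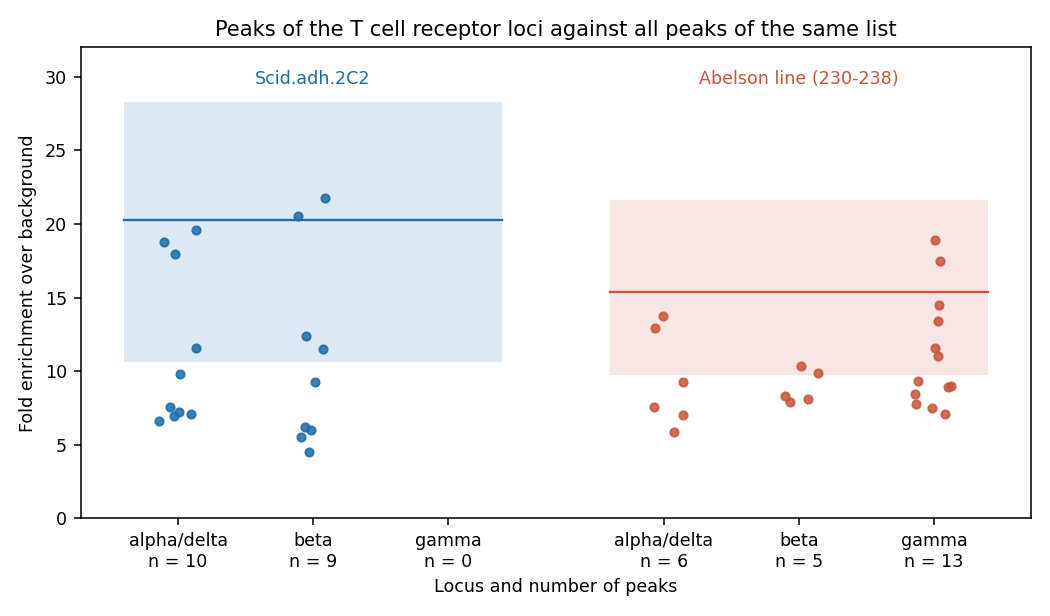
Fold enrichment of each peak within 2500 bp of a T cell receptor locus, by locus and line, with the median (line) and quartiles (band) of all peaks of the same list. In each line 2 peaks lie above the list median, both in the beta locus in Scid.adh.2C2 and both in the gamma locus in the Abelson line.

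The peaks of the loci differed from most promoters in sequence. Median observed over expected CpG was 0.17 in the locus peaks of Scid.adh.2C2 and 0.154 in those of the Abelson line, beside 0.51 and 0.427 over all peaks of the lists. Around the TSS the members had a median of 0.184, beside 0.552 for protein-coding genes, and Trbj2-7 had the highest value of the members at 0.486. The 5 Trbj2 genes under the peak, whose windows overlap, ranged from 0.233 to 0.486. The 7 Trbj1 genes, which had no peak, reached 0.284. Over all members the medians were closer, at 0.208 for those marked in 1 or both lines and 0.182 for those marked in neither. Members marked in neither line reached 0.406. The recombining end, at which the signal abuts the segment, lay inside a peak for 14 of 218 V, D and J genes in Scid.adh.2C2. In the Abelson line it did so for 8 of 218. The Trbj2 peak alone gave 5 of the 14 in Scid.adh.2C2. No share over other genes was determined for this measure.

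The proteins that act on or with the receptor genes were examined as a list of 8. In Scid.adh.2C2, 7 of 8 were marked, beside 45.5% of protein-coding genes and 23.6% of all annotated genes. In the Abelson line, 2 of 8 were marked, beside 48.2% and 25.5%, respectively. The recombinase genes Rag1 and Rag2 measured 16.5-fold and 8.20-fold in Scid.adh.2C2 and were unmarked in the Abelson line. Dntt, which encodes the terminal transferase that adds nucleotides at junctions, was marked in the Abelson line (6.02-fold) and not in Scid.adh.2C2. Ptcra, the pre-T alpha chain that pairs with the beta chain, measured 16.6-fold and was unmarked in the Abelson line. The CD3 chains, which carry the receptor's signal, were marked in Scid.adh.2C2 at 38.0-fold for Cd3d and Cd3g through the same peak, 41.5-fold for Cd3e and 24.9-fold for Cd247. In the Abelson line only Cd3d among them was marked (16.8-fold), through peaks that, unlike that of Scid.adh.2C2, did not reach the window of Cd3g.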

How the data were processed

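H3K4me3 ChIP-seq (Millipore antibody) had been sequenced for 75 cycles, single-end, from 2 ChIP libraries and 1 input library of each line. The authors clipped 5 and 3 bases from the read ends with Trim Galore 0.6.7, mapped to mm10 (GRCm38) with Bowtie2 2.4.4, called narrow peaks with MACS2 2.2.7.1 at a q-value threshold of 0.05 and kept the optimal set of IDR 2.0.4.2 at 0.05 over both replicates. The deposited columns were an IDR score, a fold enrichment ratio and −log10 p-values and q-values, used unchanged. Read depth is unknown. Samples were assigned to lines by their labels. The T lineage peak list is named P2C2, which the sample titles do not hold. It was taken as Scid.adh.2C2 because the paper lists its data of that line under this name. The labelled name of the Abelson line is given in the figures.

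Peaks were joined to GENCODE M21 with Python 3.11.15, numpy 2.4.6 and pandas 2.3.3, which was tested on simulated data. A locus ran from its first to its last gene with 2500 bp either side. Words of 67 bases, the length left after clipping, were counted on both strands of GRCm38 with numba 0.67.0. Alternatives were windows of 1000 and 5000 bp, a minimum of 10-fold, the highest IDR score, equal list lengths, the summit alone, 1 TSS per gene, loci with no flank or with 25000 bp, peaks within 1000 bp merged and a stricter overlap for shared peaks. D and C genes, marked V and J genes (the 5 highest per line where a class had over 10), neighbouring genes and the partner list were named by rule. The members and lists were chosen with earlier results of these data known.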

Additional observations from a re-analysis of the deposited data

How the results depend on the processing

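Of the recomputed counts of marked members, locus peaks and shared peaks, 36 stayed within 1.5 times the reported count. The other 5 came from thresholds that remove weak peaks. With peaks of at least 10-fold, 7 members were marked in the Abelson line, all 7 in the Abelson line only, and 8 locus peaks remained in Scid.adh.2C2 and 9 in the Abelson line. This threshold removed Trbv23 and Trbv26 in both lines, so that no member was marked in both, as well as Trav16d-dv11, Trdv2-1, Trdv2-2 and Trdj2 in Scid.adh.2C2 and Trgj1, Trgj3, Tcrg-C3 and Trav2 in the Abelson line. With both lists shortened to 15513 peaks, 14 locus peaks remained in the Abelson line. Among the counts by locus and segment type, 142 stayed within that range and 12 did not. A window of 1000 bp removed Trbv4, Trbv13-1, Trav17 and Trdj2 in Scid.adh.2C2 and Tcrg-V6 in the Abelson line. A window of 5000 bp added Trbc1, Trbv31, Trdc, Trav8d-2 and Trav14d-3-dv8 in Scid.adh.2C2 and Trbv31, Tcrg-V5 and Tcrg-V7 in the Abelson line. Trbc2, Trdj2, Trbv4 and Tcrg-V6 were marked only when the peak edge and not its summit was counted. No paired analysis was possible because each deposited list combines both replicates, and for the same reason no replicate could be left out. With the depth unknown, a missing peak says only that none was kept by the authors' calling. Whether rearrangement had deleted segments of the loci in either line was not tested, and all distances are those of the reference.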

Other observations

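Among the 44 T cell receptor segments annotated as pseudogenes, 2 were marked in Scid.adh.2C2 and 3 in the Abelson line. The shares of all annotated genes were 23.6% and 25.5%. Trbj2-6 lay under the peak over the Trbj2 genes in Scid.adh.2C2 (20.5-fold). Trbv24 was in reach of the peaks at Trbv23 in both lines (6.22-fold and 8.11-fold), and Trbv25 (10.3-fold) and Trav22 (6.99-fold) had peaks in the Abelson line. Next to the gamma locus, Vps41 was marked in both lines (31.0-fold and 25.2-fold), Epdr1 in the Abelson line only (27.1-fold) and Amph in neither.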
